A study of Bos taurus with 21 samples.

Results

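miR-192, miR-194 and miR-215 are microRNAs of liver, gut and kidney epithelium, and their levels were followed in extracellular vesicles (EVs) of cow serum. The members, bta-miR-192, bta-miR-194 and bta-miR-215 (the prefix for cattle is left out below), were chosen by name, as 3 of 847 rows of the deposited table, of which 298 carry a known bovine miRNA name and 549 a number only. EVs are membrane-bound particles that cells release into body fluids, and small RNA from them was sequenced to ask how their miRNAs differ with inflammation of the udder. The groups were 7 cows with clinical mastitis, 7 cows with subclinical mastitis, an udder inflammation that shows no outward sign, and 7 healthy cows. All libraries were made from EVs of serum of Bos taurus. Breed, age, lactation stage, the infecting organism and how EVs were isolated are not given in the sources used here, and each cow gave 1 library.

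MicroRNAs are short RNAs that guide repression of messenger RNAs, and the bases near their 5′ end, the seed, select the targets. miR-192 and miR-215 share their seed and have near-identical mature sequences, whereas miR-194 has another seed. In human cells miR-192 and miR-215 are known as targets of p53 that slow the cell cycle, and all of these miRNAs are known to be driven by the hepatocyte nuclear factors of epithelial cells. They come from 2 small clusters. In the RefSeq gene order of the ARS-UCD2.0 cattle assembly, MIR192 is followed by MIR194-2 and MIR194B-2 between EHD1 and ATG2A. MIR215 is followed by MIR194-1 and MIR194B between IARS2 and RAB3GAP2. The table has a single row named miR-194, so reads of MIR194-1 and MIR194-2 cannot be told apart in it. The sources used here do not say how reads that fit both miR-192 and miR-215 were assigned, so the split between these rows is uncertain.

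Depth differed between the groups and limits what can be seen of such scarce miRNAs. The reads of all known miRNAs in a library ran from 1386 to 34565 (median 3388) in clinical, from 3187 to 28045 (median 15960) in subclinical and from 1371 to 5706 (median 2190) in healthy cows. The values below are a signal, in reads per 1000000 of a library's scaling total for known miRNAs, and whole reads were recovered from it. In the shallowest library, healthy 6, 1 read was worth a signal of 750.8, and 0 reads allowed a share of up to 0.219% of known reads. Intervals on shares are exact binomial 95% intervals, limits for 0 reads are 3 reads over the reads of a library or group, and both cover counting error only. The material is a mixture from many tissues, so fewer vesicles of a cell type and less of a miRNA per vesicle cannot be told apart.

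The 3 miRNAs together held 713 of 201931 known reads, or 0.353%. Of the 713 reads, 431 (60.4%) were of miR-192, 225 (31.6%) of miR-215 and 57 (8.0%) of miR-194. By cow, their summed share of known reads was 0 to 0.216% (median 0.0347%) in clinical, 0.0191 to 1.17% (median 0.614%) in subclinical and 0 to 0.981% (median 0.0729%) in healthy cows. All of them were read in 1 of 7 clinical, 5 of 7 subclinical and 0 of 7 healthy cows, and none of them in clinical 2 and healthy 4. Clinical cows were low, 6 subclinical cows were high, and healthy 3 and healthy 7 were high among low healthy cows, with overlap between all groups.

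**Figure D1:**
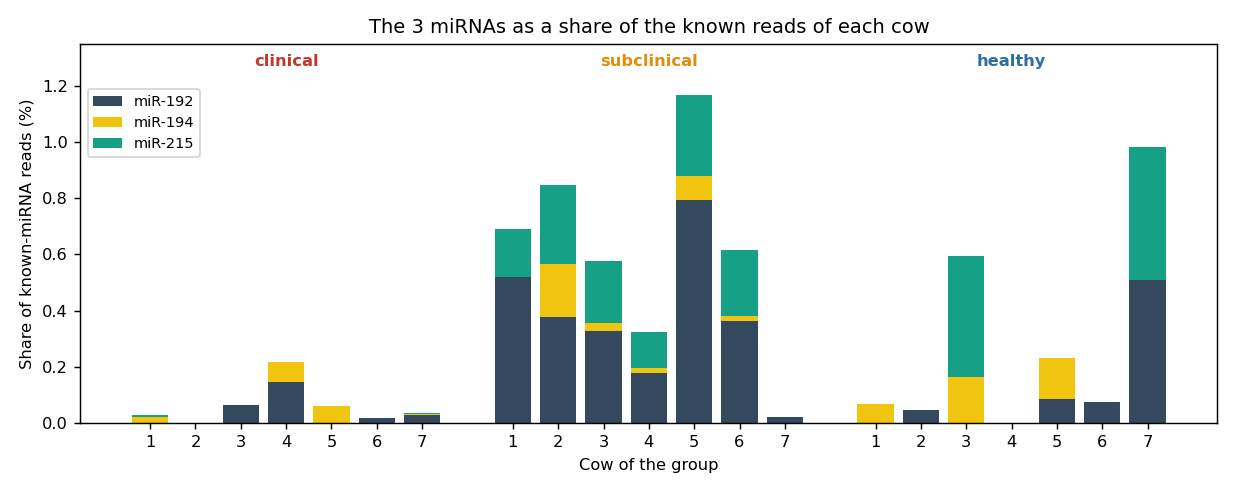
Share of known-miRNA reads (%) taken by miR-192, miR-194 and miR-215 in each of the 21 cows, stacked, with clinical cows at the left, then subclinical and healthy cows. Subclinical 1 to 6 and healthy 3, 5 and 7 stand above every clinical cow, whose highest sum is 0.216%.

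miR-192 was the most abundant of the members in mastitic cows. Its signal was 0, 162.8 and 1496 (lowest, median, highest) in clinical cows, 195.7, 3736 and 8167 in subclinical cows and 0, 486.9 and 5225 in healthy cows. Clinical cows had a mean of 369 ± 550, subclinical cows 3777 ± 2533 and healthy cows 1048 ± 1879 (SD, n = 7 per group). It was read in 4 of 7 clinical, 7 of 7 subclinical and 4 of 7 healthy cows. The clinical reads numbered 14, of which 9 were in clinical 7, against 382 in subclinical cows, of which 176 were in subclinical 5. Of the 35 healthy reads, 29 were in healthy 7, and without that cow the healthy mean was 351 ± 404 (n = 6). Subclinical 7 stood apart within its group, with 5 reads in a library of 26129 known reads (0.0191%, interval 0.00621 to 0.0447%), whereas the other subclinical cows had 0.178 to 0.795%.

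miR-215, which shares the seed of miR-192, was almost missing from clinical cows. Its signal was 0, 0 and 73.9 (lowest, median, highest) in clinical, 0, 2281 and 2970 in subclinical and 0, 0 and 4865 in healthy cows. Means were 14.8 ± 28.3, 1937 ± 1039 and 1332 ± 2278 in these groups (SD, n = 7 each). The clinical reads were 1 in clinical 1 and 1 in clinical 7, out of 64783 known reads (0.00309%, interval 0.000374 to 0.0112%). Subclinical cows held 188 of 116045 known reads (0.162%, interval 0.140 to 0.187%) and healthy cows 35 of 21103 (0.166%, interval 0.116 to 0.231%). Over its group, subclinical miR-215 was spread over 6 cows with signals of 1311 to 2970, and subclinical 7 had 0 reads, which allows up to 0.0115%. The healthy reads lay in 2 cows, 8 in healthy 3 and 27 in healthy 7, and the other healthy cows had 0 reads.

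miR-194, the partner that both clusters encode, was the scarcest overall and was spread thinly over all groups. Its signal was 0, 59.2 and 747.9 (lowest, median, highest) in clinical, 0, 193.3 and 1926 in subclinical and 0, 0 and 1672 in healthy cows. Means were 235 ± 317, 498 ± 697 and 554 ± 756 in these groups (SD, n = 7 each). It was read in 4, 5 and 3 of 7 cows, with 8 clinical, 37 subclinical and 12 healthy reads in all. Rows named miR-194b and miR-194b-3p are no members, though genes of the name MIR194B lie in the same clusters. These rows held 4 reads each, all in subclinical 4. They were at 0 of 64783 clinical reads (up to 0.00463%) and 0 of 21103 healthy reads (up to 0.0142%).

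**Figure D2:**
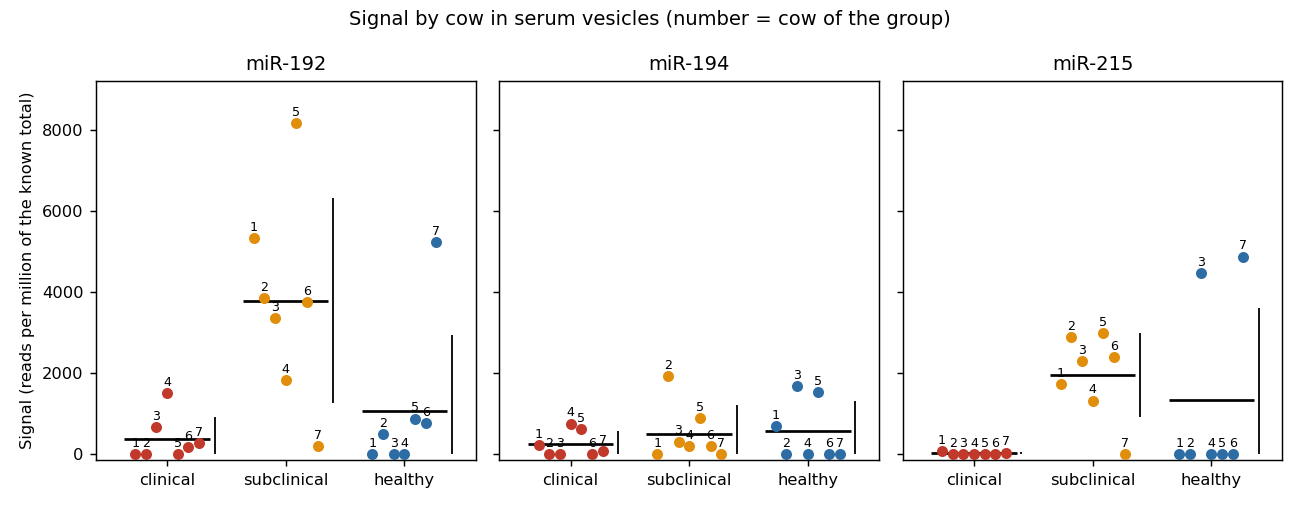
Signal of miR-192, miR-194 and miR-215 by cow, in reads per 1000000 of the known scaling total, with clinical, subclinical and healthy cows from left to right. Points are cows with their number in the group, horizontal lines are means and vertical lines 1 SD to either side, drawn no lower than 0. Subclinical 7 is the lowest subclinical cow for miR-192 and miR-215, healthy 7 is the highest healthy cow for both, with healthy 3 close to it for miR-215, and subclinical 2 is the highest subclinical cow for miR-194.

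Mature miRNAs are of nearly equal length, so that signals can be set beside each other. In subclinical cows the order was miR-192, miR-215, miR-194. There miR-192 exceeded miR-215 in 7 of 7 cows, by 1840 ± 1845 (SD, n = 7; exact sign-flip permutation p = 0.0156, the smallest possible here, adjusted p = 0.0703 over 9 tests). It exceeded miR-194 in 7 of 7, by 3279 ± 2393 (n = 7; exact permutation p = 0.0156, adjusted p = 0.0703). miR-215 exceeded miR-194 in 6 of 7 subclinical cows, with the remaining cow at 0 for both (n = 7; exact permutation p = 0.0312, adjusted p = 0.0938). None of the 9 differences between members passed the adjustment. With 7 cows, some of them tied at 0, no p here could be low enough to pass over 9 tests, so the adjustment does not decide the order. In clinical cows the means stood in the order miR-192, miR-194, miR-215, and in healthy cows miR-215, miR-192, miR-194. In clinical cows miR-194 was above miR-215 in 4 cows and below it in 0, with 3 tied at 0 (exact permutation p = 0.125). With these ties no lower p was possible, so that p does not decide the order. For the other neighbours single cows went both ways (lowest exact permutation p = 0.469).

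In each of subclinical 1 to 6, miR-215 held the smaller part of the reads of miR-192 and miR-215, at 24.5 to 42.9% (median 39.7%). That part was 24.5% in subclinical 1 and 26.7% in subclinical 5, and 38.9 to 42.9% in the others of these cows. Whether the mix differed between cows was not tested, and the split between these rows is uncertain. The 3 healthy cows with the most member reads differed from each other. Healthy 7 had 29 reads of miR-192 and 27 of miR-215 but 0 of miR-194, and healthy 3 had 8 of miR-215 and 3 of miR-194 but 0 of miR-192, at 1853 known reads. Healthy 5 had 4 of miR-192 and 7 of miR-194 but 0 of miR-215. In clinical 7, the deepest library of all, miR-215 gave 1 of 10 such reads.

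Within the groups, members were not shown to vary together. In subclinical cows the signals of miR-192 and miR-215 had Pearson's r = 0.78 (exact permutation p = 0.0270, adjusted p = 0.121 over 9 relations, n = 7) and Spearman's rho = 0.79 (exact permutation p = 0.0480, adjusted p = 0.216). Without the 2 cows farthest from the median of miR-192, r was 0.31, so the relation rests on those cows. miR-194 and miR-215 had r = 0.65 (exact permutation p = 0.0151, adjusted p = 0.121, n = 7) and rho = 0.86 (exact permutation p = 0.0167, adjusted p = 0.150), with r = 0.68 when 2 cows were left out in the same way. miR-192 and miR-194 had r = 0.33 (exact permutation p = 0.395, adjusted p = 0.735, n = 7) and rho = 0.45 (exact permutation p = 0.311, adjusted p = 0.857). Both pairs that include miR-194 share a locus, whereas miR-192 and miR-215 do not. In clinical and healthy cows the 6 relations had adjusted p of 0.735 or more by exact permutation for r and 0.857 for rho, with values carried by few cows with reads.

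In clinical against subclinical cows miR-192 and miR-215 passed some tests and not others, and miR-194 passed none. Both miR-192 and miR-215 were lower in 7 of 7 clinical cows than the subclinical mean, though single cows overlapped through subclinical 7. The main test was limma on log2(signal + 1), fitted over the 598 miRNAs whose signal reached 1 in 7 or more of the 21 cows. All 3 members met that filter. P-values had Benjamini-Hochberg adjustment, and calls were made at an adjusted p under 0.05. limma called 24 of 598 miRNAs (4.01%), or 2 of 131 known ones (1.53%), in this comparison, and no member. For miR-215 limma gave a log2 change of −7.91 (SE 2.31, adjusted p = 0.0571), and for miR-192 −6.28 (SE 2.14, adjusted p = 0.121). For miR-194 it gave −1.65 (SE 2.46, adjusted p = 0.831), with 5 of 7 clinical cows below the subclinical mean.

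Count tests on the recovered reads passed miR-192 and miR-215 in the same comparison. edgeR's quasi-likelihood test called 35 of 598 miRNAs (5.85%), 33 of them lower (5.52%), and 7 of the 131 known ones (5.34%). DESeq2 called 37 of 598 (6.19%) and 6 of the known ones (4.58%). By edgeR, miR-215 fell by 5.47 on the log2 scale in clinical cows (adjusted p = 0.00985) and miR-192 fell by 3.79 (adjusted p = 0.0176), against a median of −0.41 over the known miRNAs. With 1 scale for known and numbered miRNAs that median was −1.15, and the changes were −6.17 for miR-215 and −4.86 for miR-192. Over 14 alternatives to the main test, which include other limma settings, miR-215 passed in 7 (adjusted p from 0.00473 by DESeq2 to 0.103) and miR-192 in 6 (0.00351 by DESeq2 to 0.186). Of the limma settings, those that passed were pseudocounts of 10 and 100 for miR-215 and of 100 for miR-192. All other passes were by count tests. miR-194 did not pass by edgeR (−1.25, adjusted p = 0.655) or in any of its alternatives. With 1 cow left out, edgeR passed miR-215 in 21 of 21 fits and miR-192 in 15 of 21. It lost miR-192 without clinical 1, clinical 2, clinical 5, subclinical 1, subclinical 3 or subclinical 5, at adjusted p of 0.0527 to 0.0653. An exact permutation test of the mean signals gave p = 0.00291 for miR-192 and p = 0.00466 for miR-215, which did not pass over all 598 miRNAs (adjusted p = 0.0968 and 0.103).

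In size, the mean miR-192 signal was 10.2-fold lower in clinical than in subclinical cows, and 20.9-fold lower without clinical 4. Pooled over cows, miR-192 took 0.0216% of clinical known reads (interval 0.0118 to 0.0363%) and 0.329% of subclinical ones (0.297 to 0.364%), a ratio of 15.2 (counting interval 8.97 to 28.1), or 10.2 without subclinical 5. For miR-215 the pooled shares differed 52.5-fold (counting interval 14.3 to 436), or 82.4-fold without clinical 1. Counting intervals leave out the spread between cows. Depth moved with these groups, and its part in the result was not tested. In the deepest clinical libraries, clinical 1 had 0 miR-192 reads of 13914, which allows up to 0.0216%, and clinical 7 had a miR-192 share of 0.0260% (interval 0.0119 to 0.0494%) at 34565 known reads. Subclinical 1 to 6 had 0.178 to 0.795%, while subclinical 7, with 26129 known reads, had 0.0191%, below clinical 7. For miR-215 clinical 1 had 0.00719% and clinical 7 had 0.00289%, against 0.128 to 0.289% in subclinical 1 to 6 and 0 reads in subclinical 7. For miR-194, all 3 clinical cows and all 4 healthy cows with 0 reads had limits above the pooled subclinical share of 0.0319%. In these cows 0 reads therefore do not exclude a level like the subclinical one.

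**Figure D3:**
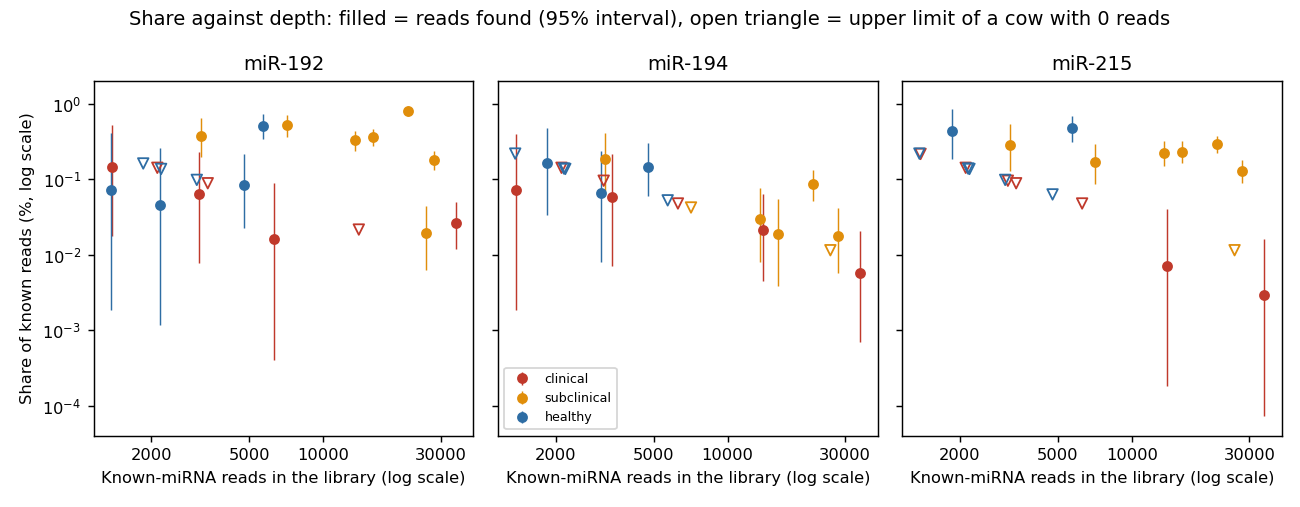
Share of known reads (%, log scale) of each member against the known-miRNA reads of the library (log scale). Filled points are cows with reads and their exact 95% intervals, and open triangles are the upper limits of cows with 0 reads. In the deepest clinical libraries, clinical 1 and clinical 7, the points or limits of miR-192 and miR-215 lie below the points of subclinical 1 to 6 but not below subclinical 7 for miR-192, while the miR-194 points of the groups are mixed.

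Clinical against healthy cows gave no call for any member. limma called 0 of 598 miRNAs here (0.0%, with 37 at an unadjusted p under 0.05), edgeR 1 (0.167%) and DESeq2 8 (1.34%). miR-215 had the largest difference of the members by count tests, with an edgeR log2 change of −4.68 (adjusted p = 0.124) and a DESeq2 change of −4.41 (adjusted p = 0.0893), while limma gave −1.89 (SE 2.31, adjusted p = 0.884). Over the 14 alternatives its adjusted p ran from 0.0893 to 0.994. All 7 clinical cows were below the healthy mean, but so were the 5 healthy cows with 0 reads. The pooled share was 53.7-fold lower in clinical cows (counting interval 13.8 to 461), 16.8-fold without healthy 7 and 84.4-fold without clinical 1. miR-192 had a limma change of −0.75 (SE 2.14, adjusted p = 0.977) and an edgeR change of −1.80 (adjusted p = 0.542; 0.432 to 1 over its alternatives). Its mean was 2.84-fold lower in clinical than in healthy cows, 5.80-fold lower without clinical 4, and the ratio of means was 1.05 without healthy 7. Pooled shares differed 7.67-fold (counting interval 4.03 to 15.4), and 1.80-fold without healthy 7. miR-194 had a limma change of 0.26 (SE 2.46, adjusted p = 0.981) and an edgeR change of −1.30 (adjusted p = 0.772), so its direction was not settled.

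Subclinical against healthy cows likewise gave no call for a member. Of 598 miRNAs limma called 12 (2.01%), edgeR 9 (1.51%) and DESeq2 10 (1.67%). The limma changes were 5.53 for miR-192 (SE 2.14, adjusted p = 0.198), 6.02 for miR-215 (SE 2.31, adjusted p = 0.198) and 1.91 for miR-194 (SE 2.46, adjusted p = 0.750), against a median of 2.23 over the known miRNAs on that scale. By edgeR the changes were 1.997 (adjusted p = 0.282), 0.79 (adjusted p = 0.760) and −0.05 (adjusted p = 0.997) in the same order, against a median of 0.50. miR-192 was above the healthy mean in 6 of 7 subclinical cows, 3.61-fold higher by means and 10.8-fold without healthy 7. In pooled shares it was 1.98-fold higher (counting interval 1.40 to 2.89), or 8.45-fold without healthy 7 and 1.32-fold without subclinical 5. Among the 21 edgeR fits without 1 cow, miR-192 passed without healthy 7 (3.70, adjusted p = 0.0179) and in no other. The pooled miR-215 shares had a ratio of 0.977 (counting interval 0.678 to 1.44), and 3.12 without healthy 7. Of the 5 healthy cows with 0 reads of miR-215, 4 had limits of 0.0630 to 0.139%, under the pooled subclinical share of 0.162%, and healthy 6 had a limit of 0.219%, above it. Healthy libraries had the lowest median depth, and its part in these values was not tested. The comparisons with healthy cows share the healthy cows, and both comparisons of clinical cows share the clinical cows. Their values are thus not independent of each other.

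**Figure D4:**
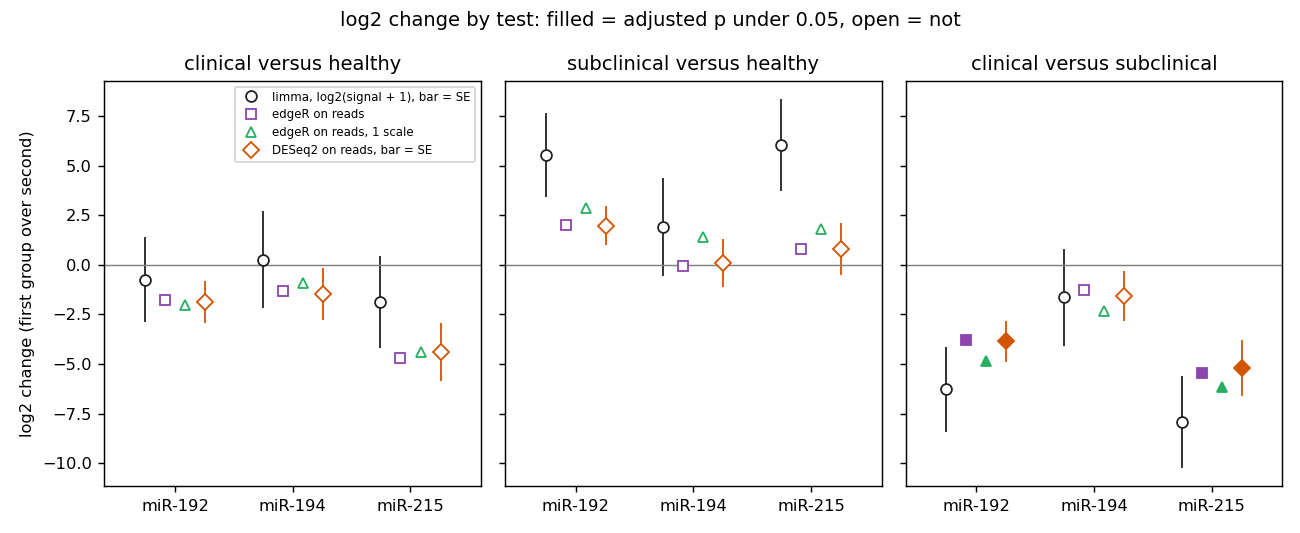
log2 change of each member in the 3 comparisons by limma, edgeR, edgeR with 1 scale for known and numbered miRNAs, and DESeq2; bars are SE where the tool gives one, and filled symbols have an adjusted p under 0.05. Filled symbols appear for miR-192 and miR-215 in clinical against subclinical cows, by the count tests, and limma's points are open throughout.

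Other miRNAs with the most similar pattern over the 21 cows were found by Spearman's rho of the signal among 130 other known miRNAs, as a description without a test; the points share library depth, and cows with 0 reads are tied. For miR-192 these were miR-92b (rho = 0.76), miR-483 (0.73), which lies within the gene of the growth factor IGF2, and miR-92a of the miR-17-92 cluster (0.66). For miR-215 they were miR-483 (0.73), miR-328 (0.71) and miR-143 (0.66), a smooth muscle miRNA with 0 reads in all clinical cows. For miR-194 they were let-7a-3p (0.55), miR-223 (0.49) of myeloid cells and miR-142-5p (0.41) of leukocytes. Among the members, miR-192 ranked 7 of 130 for miR-215 (rho = 0.56), but 52 of 130 for miR-194 (rho = 0.11).

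Other miRNAs of liver were measured beside the members, and miR-122, which dominates the miRNA of hepatocytes, was the one with calls. Its signal was 0, 0 and 2457 (lowest, median, highest) in clinical, 642.1, 8116 and 27833 in subclinical and 0, 0 and 4324 in healthy cows. In clinical against subclinical cows it fell by limma (−8.35, adjusted p = 0.0446) and by edgeR (−4.51, adjusted p = 0.00985), and it did not pass in the other comparisons. Over the 21 cows its signal ranked 5 of 130 in likeness to miR-192 (Spearman's rho = 0.61), 16 of 130 to miR-215 (rho = 0.49) and 61 of 130 to miR-194 (rho = 0.06). Single cows departed from this. Subclinical 2 had 2 reads of miR-122 but 12 of miR-192, and clinical 5 had 8 reads of miR-122 and 0 of miR-192. Healthy 3, with 8 reads of miR-215, had 0 of miR-122. A list of 9 liver miRNA names gave 10 rows, of which 5 were tested, with no call in either comparison with healthy cows. In clinical against subclinical cows miR-122 was the 1 lower call of the list, by limma and by edgeR. Of all miRNAs, limma called 4.01% and edgeR 5.85% there, and 1 of 5 is too few to weigh against these shares. The median limma change of the 5 was −4.85, against −1.64 over the known miRNAs, but these medians cannot be weighed against each other. miR-885, miR-483 and miR-193a-5p met the filter with 7 cows each, of which 5, 5 and 4 were subclinical. The filter thus favoured rows read in subclinical cows. miR-885, a liver miRNA, had mean signals of 0 in clinical, 204 ± 265 in subclinical and 94.5 ± 183 in healthy cows (edgeR adjusted p = 0.0515, clinical against subclinical). miR-483 had 12.7 ± 33.6, 239 ± 251 and 103 ± 272 in these groups (edgeR adjusted p = 0.306), and miR-193a-5p had 46.5 ± 123, 1332 ± 1829 and 329 ± 624 (edgeR adjusted p = 0.0722). miR-101 had 405 ± 481, 78.3 ± 120 and 51.5 ± 136 (edgeR adjusted p = 0.306). The remaining rows of the list, miR-193b, miR-148a, miR-22-3p, miR-22-5p and miR-455-3p, were each read in 1 to 5 of 21 cows and not tested.

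Markers of epithelium at large were mostly too scarce to test. Of 12 epithelial names 10 had a row and 3 were tested, miR-200c, miR-141 and miR-204, with 0 calls in any comparison by limma or edgeR. In clinical against subclinical cows, where limma called 4.01% and edgeR 5.85% of all miRNAs, 0 of 3 is near that background. miR-200c, which keeps epithelial cells from turning mesenchymal, had mean signals of 345 ± 612.5 in clinical, 288 ± 333 in subclinical and 487 ± 536 in healthy cows, and in clinical against subclinical cows its change was −3.63 by limma (adjusted p = 0.574) and −0.43 by edgeR (adjusted p = 0.945). miR-141, of the same family, had 43.8 ± 116, 60.8 ± 92.3 and 267 ± 361, and miR-204 had 197 ± 425, 130 ± 136 and 455 ± 657 in these groups (SD, n = 7). miR-200a, miR-200b, miR-429, miR-375, miR-205, miR-196a and miR-211 were each read in 1 to 6 of 21 cows. Summed, epithelial rows took 0 to 0.148% (median 0.0289%) of known reads in clinical, 0.0383 to 0.155% (median 0.0813%) in subclinical and 0 to 0.432% (median 0.183%) in healthy cows.

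Marker miRNAs of blood and liver cells were summed as a check of the material. The hepatocyte markers miR-122, miR-885 and miR-483 took 0 to 0.237% (median 0) of known reads in clinical cows. They took 0.0941 to 2.85% (median 0.796%) in subclinical and 0 to 0.508% (median 0) in healthy cows. Most of these reads were of miR-122, with 21 clinical, 1196 subclinical and 38 healthy reads. miR-885 had 0, 23 and 2 reads in these groups, and miR-483 had 3, 23 and 4. The median of the sum was highest in subclinical cows, as were the medians of miR-192 and miR-215. In pooled shares miR-215 was alike in subclinical (0.162%) and healthy cows (0.166%), whereas miR-122 took 1.03 and 0.180%. The part of these markers in the result was not tested. In clinical cows miR-885 was at 0 throughout. The red cell rows miR-451, miR-486 and miR-144 took 0.657 to 1.15% in clinical, 0.502 to 2.61% in subclinical and 0.365 to 1.47% in healthy cows. Of these, 0 of 2 tested were called in any comparison by limma or edgeR. miR-144 was read in only 2 of 21 cows, none of them clinical, and was not tested. The leukocyte rows miR-223, miR-142-3p, miR-142-5p and miR-150 took 2.42 to 6.22%, 3.21 to 8.66% and 2.09 to 6.42% in these groups, with 0 of 4 called. The rows of the platelet list, miR-126-3p, miR-126-5p, miR-197, miR-191 and miR-223, took 19.3 to 40.5%, 9.10 to 37.4% and 17.999 to 30.6%, with 0 of 5 called. miR-126-5p alone held 19.0, 20.4 and 17.3% of the pooled known reads of these groups, and miR-223 is also in the leukocyte sum. The platelet sum was thus mostly 1 row and is no measure of platelet content. Of all 598 miRNAs, limma called 0 to 4.01% and edgeR 0.167 to 5.85% by comparison. For lists this short, 0 calls are near that background.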

How the data were processed

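Per the labels' protocols, the miRNeasy Mini kit gave total RNA, and TruSeq small RNA libraries took 3 µg of it. The submitters' processing notes name Bowtie, edgeR and the ARS-UCD1.2 build and give no role for them. The authors deposited 1 table of signal, in reads per 1000000 of a total set separately for known and for numbered rows; known rows sum to 2.06 to 5.39% above 1000000, so values were not taken as TPM, which the planned test had assumed. All 10115 nonzero values (100%) came out as whole reads, within 0.05, once divided by the step of their sample and row block, and these reads were kept. No 2 libraries of a group were alike within sampling noise (smallest chi-square per degree of freedom 3.41). The labels tie columns to cows; the columns of the replicate 7 cows carry other numbers in the table.

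limma with an intensity trend was fitted on log2(signal + 1) in all 21 samples with 3 group means (18 residual degrees of freedom), two-sided. Recovered reads were tested with edgeR (TMM per row block, or 1 scale) and with DESeq2, and mean signals by exact permutation. The fits were tested on simulated data. Other alternatives were pseudocounts of 10 and 100, filters, median-ratio scaling, known miRNAs alone, a replicate block, and leaving out each cow or the libraries under 2000 known reads. Named miRNAs were the members, for each member the 3 known miRNAs of highest Spearman's rho, and the measured members of a liver and an epithelial list. Members and lists were chosen with earlier results of these data known. Same-numbered cows were not paired: correlations of their deviations ran from −0.12 to 0.31, with 3 of 21 over 0.1. Fits used edgeR 4.0.16, limma 3.58.1 and DESeq2 1.42.0 under R 4.3.3, and figures matplotlib 3.10.9 under Python 3.11.15, with exact tests from scipy 1.17.1.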

Additional observations from a re-analysis of the deposited data

Results flagged for a closer look

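The miR-192 signal of healthy 7 (5225) lay far above the other healthy cows, whose highest was 869.8, with a gap of 0.834 of the group's range, past Dixon's 95% critical value for 7 samples. The miR-215 signal of clinical 1 (73.9) stood out in the same way within clinical cows, with a gap of 0.599 of the range, and it rests on 1 read. Clinical 7, the next cow, also had 1 read, worth a signal of 29.6 in its deeper library. In all, 9 groups were looked at. The critical value assumes normally distributed values, whereas many cows here were tied at 0, so no chance rate can be given.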

How the results depend on the processing

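For clinical against subclinical cows, miR-192 and miR-215 kept their direction in every alternative, and passing depended on the setting. Changes that passed were, for miR-192, −3.35 with a pseudocount of 100, −3.79 by edgeR, −4.86 by edgeR on 1 scale, −3.85 by DESeq2 and −4.01 by edgeR without libraries under 2000 known reads (clinical 4, healthy 3 and healthy 6; added after seeing the data). For miR-215 they were −5.94 and −3.70 with pseudocounts of 10 and 100, −5.47 by edgeR, −6.17 on 1 scale, −5.21 by DESeq2 and −5.30 by edgeR without those libraries. Without 1 cow, miR-192 ran from −7.20 to −5.44 by limma (0 of 21 fits passed) and −4.00 to −3.23 by edgeR, and miR-215 from −9.49 to −7.57 by limma (5 of 21 passed: without clinical 1, clinical 7, subclinical 7, healthy 3 or healthy 7) and −5.70 to −5.19 by edgeR.

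miR-194 never passed, and it turned direction in both comparisons with healthy cows. In clinical against subclinical cows it was lower in every alternative. Without 1 cow it ran there from −2.70 to −0.88 by limma and −1.40 to −0.64 by edgeR. In clinical against healthy cows it was 0.26 by limma but −0.18 and −0.41 with pseudocounts of 10 and 100, −1.30 by edgeR, −0.91 on 1 scale, −1.46 by DESeq2, −0.17 (limma) and −1.36 (edgeR) without the shallow libraries, −0.70 by edgeR with a replicate block, and −319 in mean signal; without 1 cow it ran from −0.56 to 1.31 by limma and −2.08 to −0.86 by edgeR. In subclinical against healthy cows it was 1.91 by limma but −0.050 by edgeR, −0.014 by edgeR both without the shallow libraries and with a replicate block, and −55.9 in mean signal; without 1 cow it ran from 1.14 to 2.96 by limma and −0.68 to 0.38 by edgeR. miR-192 in clinical against healthy cows ran from −1.72 to 0.34 (limma) and −2.09 to −0.11 (edgeR) without 1 cow, its highest values being without healthy 7, and in subclinical against healthy cows from 4.56 to 6.62 and 1.65 to 3.70. The causes were not tested.

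Calls over all miRNAs were, for clinical against healthy cows, 0 by limma, 1 by edgeR and 8 by DESeq2 (0 and 0 to 4 without 1 cow by limma and edgeR). For subclinical against healthy cows limma called 12, with 6 after median-ratio scaling, 6 by edgeR on 1 scale, 2 of known miRNAs alone, and 0 by exact permutation or without the shallow libraries (limma and edgeR); without 1 cow limma called 6 (without healthy 1) to 26 and edgeR 3 (without healthy 2) to 24, the highest both without healthy 7. For clinical against subclinical cows limma called 24 (14 without subclinical 1 to 26 without clinical 7; edgeR 35, and 20 without subclinical 3 to 39 without subclinical 4), with 14 under a stricter filter, 37 by DESeq2, 10 by exact permutation and 0 of known miRNAs alone (24 at an unadjusted p under 0.05). The share of higher calls in subclinical against healthy cows was 9 of 12 by limma and 6 of 6 after median-ratio scaling.

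Replicate numbers do not pair the cows (6 of 42 best matches were to the own number). With the replicate block limma gave miR-192 −6.28 (adjusted p = 0.186) and miR-215 −7.91 (adjusted p = 0.103) in clinical against subclinical cows, with 23 calls; in subclinical against healthy cows there were 8 calls. edgeR with the replicate block, added after seeing the data, gave 29 calls and passed both, at −4.33 and −6.34 (adjusted p = 0.0250 and 0.0110).

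Of the correlations, on log2 values miR-192 and miR-194 had r = −0.12 and miR-194 and miR-215 r = 0.35 in clinical cows, both reversed. Without 1 cow, r of these pairs ran from −0.47 to 0.82 and from −0.25 to 0.074, r of miR-192 and miR-215 from −0.43 to 0.98 in healthy and 0.59 to 0.84 in subclinical cows (passing without subclinical 1), and r of miR-194 and miR-215 in healthy cows from −0.29 to 0.64.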
